A study of Mus musculus with 28 samples.

Results

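Pi16, Dpp4, Cd34, Ly6a, Dlk1, Crabp1, Dpt and Ly6c1 are genes used to mark progenitors and subtypes of skin fibroblasts. They were chosen by name, with earlier results of these data known, and they are 8 of the 29068 gene symbols counted in a transcriptome time course of mouse skin wounds. All 8 were among the 18107 genes with enough counts to be tested. Every group held C57BL/6J mice, which the study calls MLKL+/+ and gives as 8 weeks old and of both sexes, and all wounds were left to heal naturally after a circular punch excision of the dorsal skin down to the fascia. Tissue was taken from the whole wound site, scab and epithelial margin included. The groups were Day0, which the labels treat as the control, and Day3, Day5, Day7, Day10, Day12 and Day14 after injury, with 4 libraries per day and 28 in all. The study's methods count the earliest time point as day 1, the day on which the wound was made, and the name Day0 of the labels is kept here. Whether Day0 tissue was unwounded skin or was taken at wounding is not given in the sources used here. Each difference from Day0 is read with that limit. The labels do not say whether each library came from its own mouse, so the p-values measure the spread between libraries only. Each library is RNA of mixed tissue, so fewer cells of a type and less RNA per cell cannot be told apart.

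Fibroblasts of mouse skin form several populations. Cells that carry Pi16 and Dpp4, usually together with Cd34 and Ly6a (Sca-1), lie in the fascia, around vessels and in the deeper dermis, and are regarded as multipotent progenitors of other fibroblasts and of adipocytes. Dlk1 marks the deeper, reticular and adipogenic lineage of the young dermis, Crabp1 marks fibroblasts of the upper dermis and of the dermal papilla that bind retinoic acid in the cytoplasm, and Dpt is carried by fibroblasts of most tissues. These genes are not fibroblast markers only. Cd34 is also found on endothelium and on stem cells of the hair follicle, Ly6a and Ly6c1 on endothelium, and both the Ly6a and Ly6c antigens on leukocytes.

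Dlk1 and Crabp1 had the widest ranges of level over the wound days. Dlk1, a membrane protein of the Delta family that holds back adipocyte differentiation, rose from a mean of 1.67 ± 1.45 CPM (read counts scaled to library size after TMM normalization; mean ± SD, n = 4) on Day0 to 44.7 ± 2.60 on Day10. Crabp1, cellular retinoic acid binding protein 1, rose from 28.1 ± 6.07 to 144 ± 6.67 CPM over the same interval and was back at 23.9 ± 2.97 CPM on Day12. Pi16, Dpp4, Ly6a and Ly6c1 fell from Day7 to Day10, rose again on Day12 and fell on Day14. Levels of Pi16, Dpp4, Cd34 and Dpt against Day0 depended on which Day0 libraries were compared.

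The stretches just upstream of the annotated starts of 4 genes are shown because these genes stand for both behaviours, Dlk1 and Crabp1 for the rise to Day10 and Dpp4 and Cd34 for the levels that varied together over the libraries. The windows are RefSeq sequence of the GRCm38.p6 build, read 5′ to 3′ on the strand of the gene and cut to the bases that lie in no annotated exon, and capitals mark CG dinucleotides. The window of Dlk1 is chr12:109452573-109452822 on the plus strand, that of Crabp1 chr9:54764498-54764747 on the plus strand, that of Dpp4 chr2:62412232-62412481 on the minus strand and that of Cd34 chr1:194938571-194938818 on the plus strand.
Dlk1: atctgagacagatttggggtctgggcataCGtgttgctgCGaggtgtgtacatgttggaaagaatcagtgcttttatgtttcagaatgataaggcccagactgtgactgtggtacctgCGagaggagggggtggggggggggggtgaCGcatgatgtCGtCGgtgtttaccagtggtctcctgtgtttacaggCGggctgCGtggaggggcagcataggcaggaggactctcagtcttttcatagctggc
Crabp1: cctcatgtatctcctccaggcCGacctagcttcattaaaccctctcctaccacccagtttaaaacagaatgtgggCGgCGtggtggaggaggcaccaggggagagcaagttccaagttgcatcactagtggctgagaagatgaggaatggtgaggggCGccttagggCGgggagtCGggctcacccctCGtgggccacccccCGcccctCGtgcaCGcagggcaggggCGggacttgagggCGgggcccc
Dpp4: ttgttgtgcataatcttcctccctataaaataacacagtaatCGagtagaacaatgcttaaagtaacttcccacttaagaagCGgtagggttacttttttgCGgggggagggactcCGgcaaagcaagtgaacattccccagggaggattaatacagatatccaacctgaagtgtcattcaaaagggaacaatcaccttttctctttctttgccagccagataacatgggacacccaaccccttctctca
Cd34: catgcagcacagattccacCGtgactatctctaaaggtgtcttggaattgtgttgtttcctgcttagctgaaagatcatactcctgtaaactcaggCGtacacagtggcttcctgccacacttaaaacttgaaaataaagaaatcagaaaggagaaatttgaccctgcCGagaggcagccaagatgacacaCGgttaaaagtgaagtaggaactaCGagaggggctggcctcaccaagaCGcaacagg

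The Crabp1 window held 12 CG dinucleotides at a GC content of 63.6%, and 66.5% of 32817 RefSeq promoter windows of 250 bases held fewer. The Dlk1 window held 8 at a GC content of 54.8%, above the median of 6 over all windows. Cd34 held 6 and Dpp4 held 4. Windows were searched on both strands for 3 short motifs. The letters TATAAA, in 12.4% of all windows, were in the Dpp4 window. The TEAD motif GGAATG, in 12.6%, was in the Dpp4 and Crabp1 windows. The AP-1 motif TGANTCA, in 6.75%, was in none of the 4. None of the 3 motifs contains another, and a match describes the sequence only.

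The gene counts of a library summed to between 36706513 and 40655764, and the members were covered by 22 counts (Dlk1) to 50093 counts (Dpt) in a library. Xist, transcribed from the inactive X chromosome of females, had between 0 and 13 counts in every library. No library thus showed the Xist RNA of female tissue, although the methods give both sexes. The 4 Day0 libraries fell into 2 pairs. Over 17905 genes outside the gene lists used here, libraries 2 and 3 differed by a median of 0.11 log2 CPM and libraries 1 and 4 by 0.19, whereas all other combinations differed by 0.27 to 0.31, and libraries of 1 wound day differed by 0.10 to 0.23. The biological coefficient of variation was 26.4% on Day0 and between 5.70% and 10.8% on the other days. Summed CPM of 8 reference genes of fibroblasts (Pdgfra, Dcn, Lum, Col6a1, Col6a2, Mmp2, Fstl1 and Serpinf1), all well above 3 counts, was 5160.4, 10322, 9966 and 3543 in Day0 libraries 1 to 4. The sum of 10 basal keratinocyte genes was 10547, 7055, 7503 and 11507 CPM in the same order, and that of 10 skeletal muscle genes was 26220.1, 16163, 16465 and 27889.7 CPM. Libraries 2 and 3 thus carried more fibroblast and less keratinocyte and muscle RNA than libraries 1 and 4, and the part of this in the levels of the 8 genes was not tested.

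**Figure D1:**
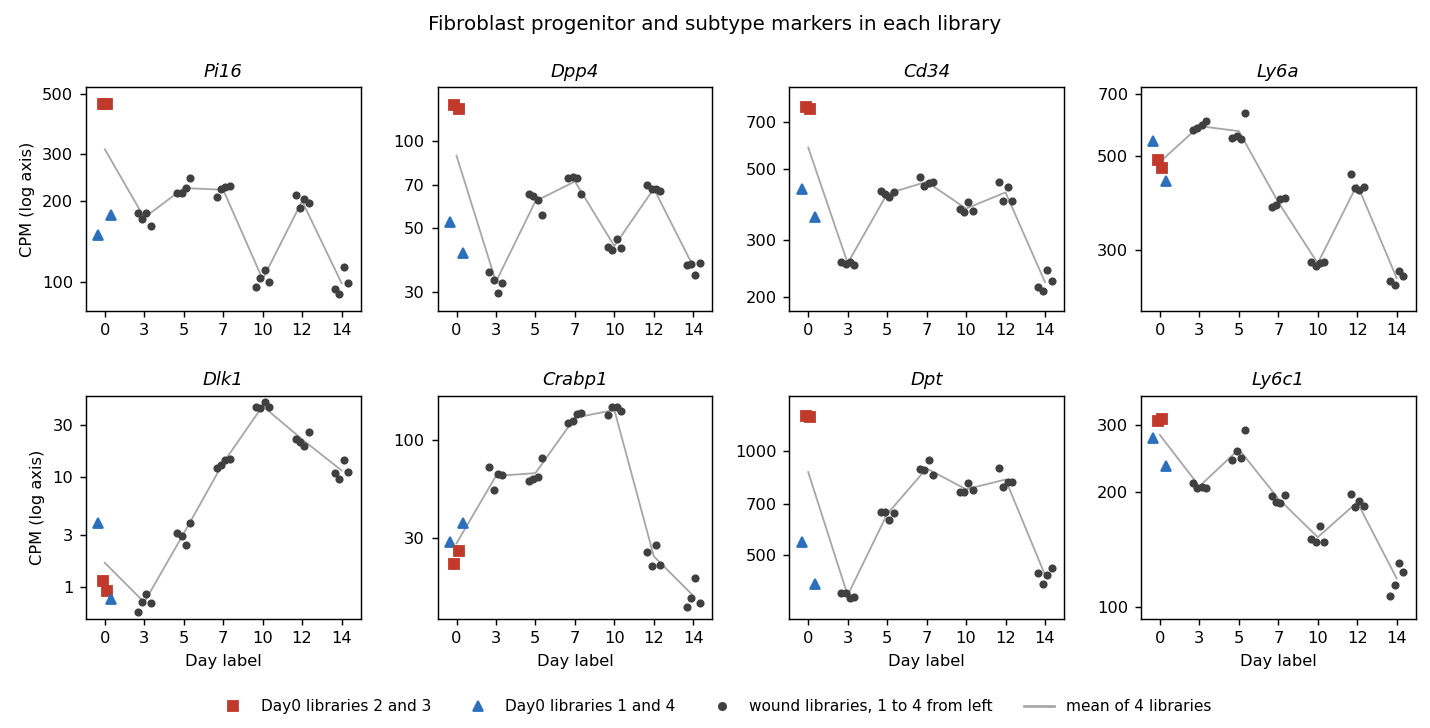
Level of each gene in every library on a log axis of CPM against the day label, with Day0 libraries 2 and 3 as red squares, Day0 libraries 1 and 4 as blue triangles, wound libraries as dots and the day means joined by a line. For Pi16, Dpp4, Cd34 and Dpt the red squares lie far above the blue triangles, and wound days lie between them, within the range of the triangles or below both, depending on the gene and day, whereas Dlk1 and Crabp1 peak on Day10 above every Day0 library.

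Because of these pairs, each difference from Day0 was also fitted against Day0 libraries 1 and 4 alone and against libraries 2 and 3 alone, a choice made after seeing the data. Of the 48 differences, 8 genes on 6 wound days, 27 had the same call in all 3 fits, and 11 were called in opposite directions against the 2 pairs. Ly6a kept its call on 6 of 6 days, Crabp1 and Ly6c1 on 5, Dlk1 on 4, Pi16, Dpp4 and Cd34 on 2 and Dpt on 1. A gene was called where its edgeR quasi-likelihood p, adjusted by Benjamini-Hochberg across the genes tested, was under 0.05. There were 18107 such genes in the fit of all libraries, 18807 with Day0 libraries 1 and 4 alone and 18861 with libraries 2 and 3 alone. The fit pools the spread of a gene over all days, although Day0 varied most, so the SE can understate the spread of Day0. The exact permutation test of log2 CPM, 4 libraries against 4, takes the Day0 spread as it is. Adjusted by Benjamini-Hochberg over the 48 differences, its smallest adjusted p was 0.0527, so none was under 0.05. It gave unadjusted p = 0.37 for Pi16 on Day3, 0.31 for Cd34 on Day5 and 0.37 for Cd34 on Day12, all called by edgeR.

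**Figure D2:**
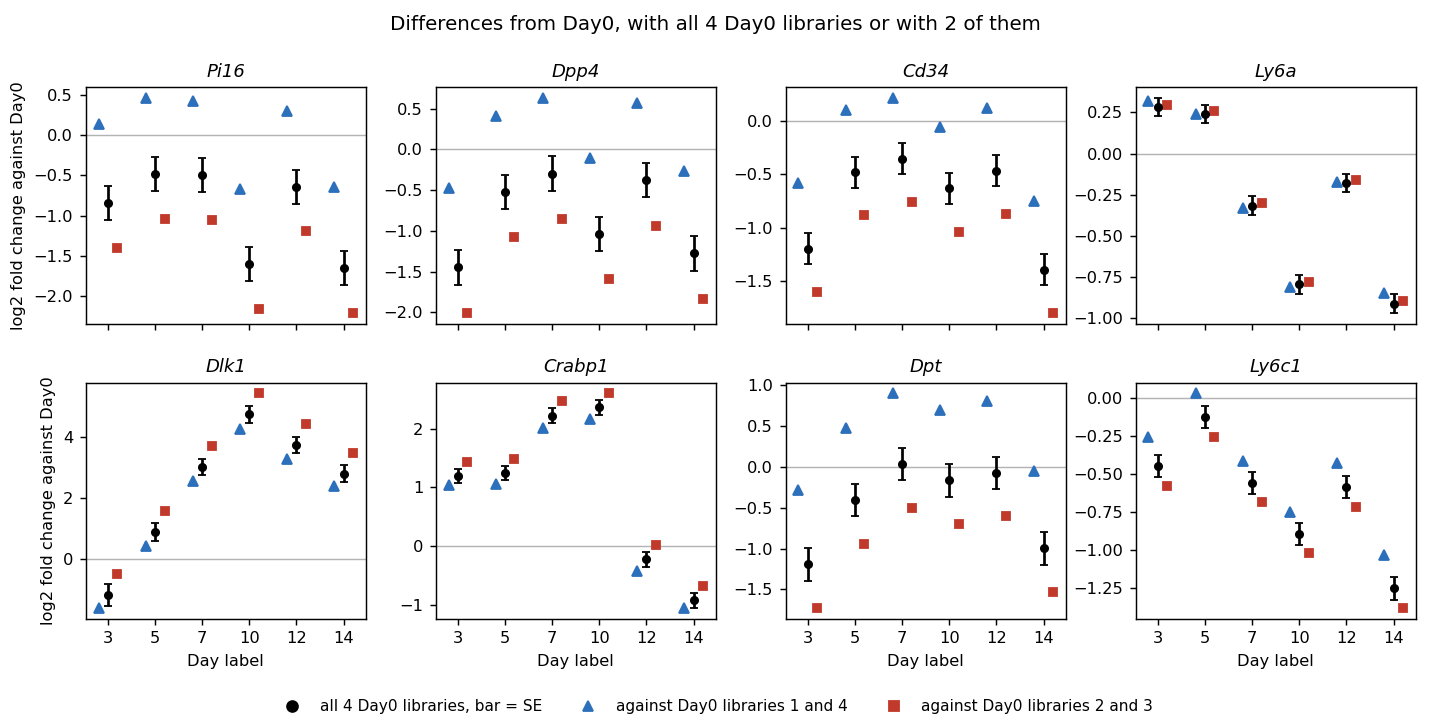
Log2 fold change of each gene against Day0 by day label, with all 4 Day0 libraries (black, bar = SE) and against libraries 1 and 4 (blue) or 2 and 3 (red) alone. Blue and red lie on opposite sides of 0 for Pi16, Dpp4, Cd34 and Dpt on Day5, Day7 and Day12, whereas they lie close together for Ly6a.

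Dlk1 was the gene with the widest range. Its level was 3.83, 1.14, 0.933 and 0.779 CPM in Day0 libraries 1 to 4, and 0.594, 0.734, 0.874 and 0.718 CPM on Day3. It was 3.14, 2.91, 2.42 and 3.87 CPM on Day5 and 12.2, 13.0, 14.3 and 14.9 CPM on Day7. It reached 43.5, 42.7, 48.5 and 44.1 CPM on Day10, before 22.6, 21.2, 19.2 and 26.0 CPM on Day12 and 11.1, 9.78, 14.3 and 11.2 CPM on Day14. All libraries of Day7, Day10, Day12 and Day14 lay above every Day0 library, and of these 4 wound days Day7 and Day14 alone overlapped each other. The mean rose 61.2-fold from Day3 to Day10. Against Day0, Dlk1 was higher by 3.02 ± 0.27 on the log2 scale on Day7 (SE; edgeR adjusted p = 2.59e-10), by 4.74 ± 0.27 on Day10 (26.7-fold, adjusted p = 6.67e-14), by 3.73 ± 0.27 on Day12 (adjusted p = 1.06e-11) and by 2.79 ± 0.27 on Day14 (adjusted p = 7.04e-10). These 4 calls held against either pair of Day0 libraries, with log2 fold changes of 4.26 and 5.43 on Day10. Leaving out 1 library gave 2.79 to 3.83 on Day7, 4.51 to 5.55 on Day10, 3.52 to 4.56 on Day12 and 2.64 to 3.68 on Day14. The lower level on Day3 rested on 1 library. The log2 fold change was -1.19 ± 0.35 (edgeR adjusted p = 0.00388) with all libraries and -0.34 (adjusted p = 0.19) without Day0 library 1. The call on Day5 (0.88 ± 0.29, edgeR adjusted p = 0.00954) was lost against libraries 1 and 4 (0.42, adjusted p = 0.23), and the difference was 1.70 without library 1. Between successive wound days the gene rose by 2.07 ± 0.33, 2.14 ± 0.25 and 1.72 ± 0.23 on the log2 scale up to Day10 and fell by 1.01 on Day12 and by 0.94 on Day14 (edgeR adjusted p between 1.54e-07 and 0.00125).

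Dlk1 lies in an imprinted region of chromosome 12 (GRCm38, chr12:109452823-109463336, plus strand), and it is counted with other imprinted growth genes to a network that is high in embryonic and young tissue. Of 11 measured genes of an imprinted gene list, 10 were higher and 0 lower than Day0 on Day7, and again 10 and 0 on Day10, where the median log2 fold change of the list was 1.92 against -0.02 over all genes tested. The counts were 3 higher and 6 lower on Day3 and 5 higher and 2 lower on Day14. On Day3 they were 4 and 4 against Day0 libraries 1 and 4, and 3 and 7 against libraries 2 and 3. The list was chosen with results of these data known. Mest, a hydrolase expressed from the paternal allele, also had its highest mean on Day10, with means of 8.75 CPM on Day0, 26.4 on Day3, 289 on Day10 and 31.9 on Day14 and a log2 fold change of 5.05 ± 0.20 on Day10 (edgeR adjusted p = 5.49e-17). Meg3, the maternally expressed non-coding RNA of the same chromosome 12 region, fell to 12.7 ± 1.93 CPM on Day3 and stood at 90.9 ± 5.20 CPM on Day10 (log2 fold change 1.92 ± 0.20, edgeR adjusted p = 7.54e-09). Its level on Day14 was 45.8, 49.1, 20.7 and 62.8 CPM, so that 1 library lay below every Day0 library and 3 lay above. H19 and Cdkn1c had the largest falls of the list on Day3, with log2 fold changes of -2.38 ± 0.27 and -1.95 ± 0.10. For H19 it was -2.95 against Day0 libraries 1 and 4 and -1.24 against libraries 2 and 3.

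**Figure D3:**
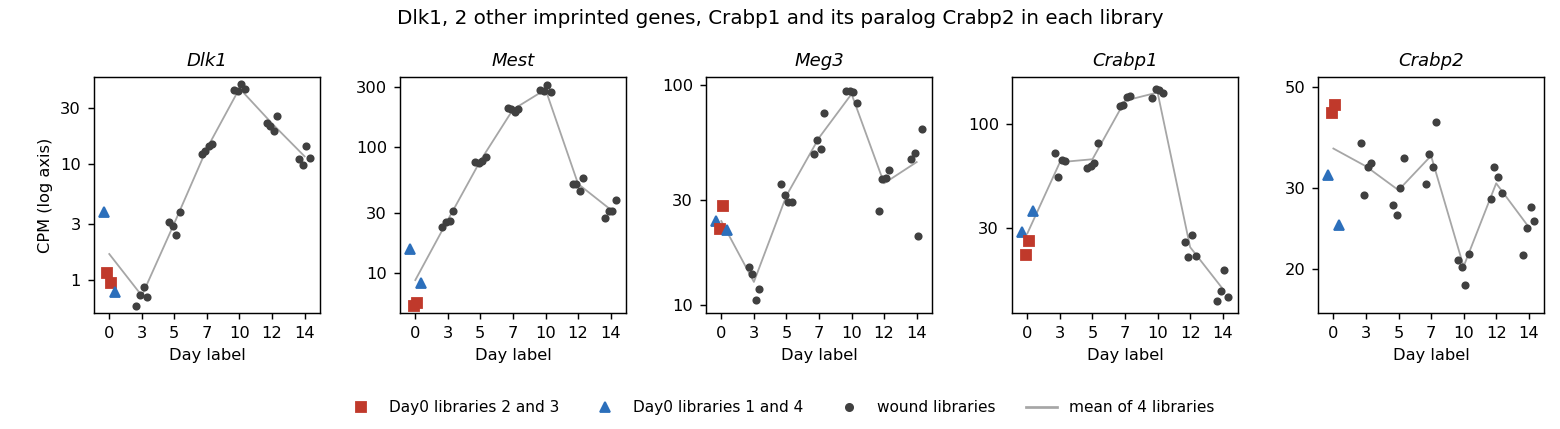
CPM on a log axis against the day label for Dlk1, the imprinted genes Mest and Meg3, Crabp1 and its paralog Crabp2, with every library as a point and the day means joined. Dlk1, Mest and Meg3 reach their highest mean on Day10, as does Crabp1, while Crabp2 has its lowest mean there (20.2 CPM).

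Crabp1 (chr9:54764748-54773110, plus strand) was higher than Day0 on Day3, Day5, Day7 and Day10. Its level was 28.5, 21.9, 25.7 and 36.2 CPM in Day0 libraries 1 to 4, 71.8, 53.9, 66.1 and 65.1 CPM on Day3 and 60.4, 61.7, 63.3 and 80.5 CPM on Day5. It was 123, 126, 138 and 139 CPM on Day7 and 136, 149.9, 149 and 143 CPM on Day10. It stood at 25.3, 21.4, 27.5 and 21.6 CPM on Day12 and at 12.8, 14.4, 18.4 and 13.5 CPM on Day14. All 4 libraries of each day from Day3 to Day10 were above every Day0 library, and all 4 of Day14 were below. The log2 fold change against Day0 was 1.19 ± 0.13 on Day3, 1.24 ± 0.13 on Day5, 2.23 ± 0.13 on Day7 and 2.36 ± 0.13 on Day10 (5.15-fold, edgeR adjusted p = 1.90e-14), and it was -0.93 ± 0.13 on Day14 (adjusted p = 5.29e-07). These 5 calls held against either pair of Day0 libraries. On Day12 the level could not be told from Day0 with all libraries (-0.23 ± 0.13, edgeR adjusted p = 0.14), and the call depended on the libraries, with -0.42 against libraries 1 and 4 (adjusted p = 0.00994), 0.01 against libraries 2 and 3 and -0.33 without library 2 (adjusted p = 0.0328). The step from Day10 to Day12 was the largest decrease of any member between successive days, a fall by 2.59 on the log2 scale (SE 0.13, edgeR adjusted p = 1.26e-14).

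The paralog Crabp2, which delivers retinoic acid to nuclear receptors, did not follow Crabp1. It was lower than Day0 on Day10, by -0.86 ± 0.14 (edgeR adjusted p = 6.47e-06), and on Day14, by -0.57 ± 0.14, and it did not pass the test on the other days. Its Day0 level split by pair, at 32.1, 43.9, 45.7 and 24.96 CPM in libraries 1 to 4. With libraries 1 and 4 alone the log2 fold change was -0.50 on Day10 (edgeR adjusted p = 0.00157) and -0.13 on Day14 (edgeR adjusted p = 0.375), against -1.15 and -0.86 with libraries 2 and 3. Among 14 tested genes of retinoic acid handling, 4 were higher and 7 lower on Day3, 5 higher and 4 lower on Day7, 4 higher and 7 lower on Day10 and 4 higher and 7 lower on Day14. Among the largest changes of the list were those of Stra6, the retinol transporter, at -2.99 ± 0.25 on Day3 and 2.70 ± 0.18 on Day14, and of Aldh1a1, which makes retinoic acid, at -2.43 ± 0.09 and -2.04 ± 0.08 on the same days. Lists of genes of the upper dermis, to which Crabp1 is usually assigned, gave these counts. Of 10 papillary genes 1 was higher and 7 lower than Day0 on Day3 and 4 were higher and 3 lower on Day10, and of 10 dermal papilla genes 3 were higher and 7 lower on Day3 and 3 were higher and 2 lower on Day10. Against Day0 libraries 1 and 4 the dermal papilla counts on Day10 were 6 higher and 2 lower, and against libraries 2 and 3 they were 3 and 3.

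Pi16 (chr17:29317680-29330593, plus strand), a secreted peptidase inhibitor and the leading marker of the progenitor population, was 149.9, 459, 459 and 178 CPM in Day0 libraries 1 to 4. It was 162 to 181 CPM on Day3, 214 to 243 on Day5, 207 to 227 on Day7, 96.0 to 111 on Day10, 189 to 211 on Day12 and 90.4 to 114 on Day14. Only Day10 and Day14 lay below all 4 Day0 libraries, and the log2 fold changes there were -1.60 ± 0.22 (edgeR adjusted p = 5.31e-07) and -1.65 ± 0.22 (adjusted p = 1.87e-07). These falls held against libraries 1 and 4 (-0.67 and -0.65) and against libraries 2 and 3 (-2.16 and -2.21). On Day5, Day7 and Day12 the wound libraries lay between the pairs, and on Day3 2 of 4 did while the other two lay within the range of libraries 1 and 4. With all libraries the log2 fold changes were -0.84 ± 0.21 on Day3 (edgeR adjusted p = 0.00100), -0.48 ± 0.21 on Day5 (0.0526, not called), -0.50 ± 0.21 on Day7 (just above the threshold, not called) and -0.64 ± 0.21 on Day12 (0.0142). In the order Day3, Day5, Day7 and Day12 they were 0.13, 0.46, 0.43 and 0.30 against libraries 1 and 4. Against libraries 2 and 3 they were -1.40, -1.03, -1.06 and -1.20 in the same order. The call on Day12 was also lost without library 2 or without library 3 (-0.39 each), and the differences on Day5 and Day7 were called lower without library 1 (-0.70 and -0.73) or without library 4 (-0.66 and -0.69). Within the wound the fall from Day7 to Day10 was by 1.10 on the log2 scale (SE 0.21, edgeR adjusted p = 2.00e-04), the rise to Day12 was 0.96 ± 0.21 (adjusted p = 6.23e-04) and the fall to Day14 was by 1.01 (adjusted p = 3.44e-04), with no overlap of libraries at any of these steps.

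Dpp4 (chr2:62330073-62412231, minus strand), a membrane dipeptidase (CD26), showed the same steps at a lower level. It was 52.4, 133, 129 and 40.8 CPM in Day0 libraries 1 to 4, 29.7 to 35.1 CPM on Day3, 55.2 to 65.2 on Day5, 65.2 to 74.7 on Day7, 42.0 to 45.6 on Day10, 67.1 to 69.9 on Day12 and 34.4 to 37.6 on Day14. Day3 and Day14 lay below every Day0 library, with log2 fold changes of -1.45 ± 0.22 (edgeR adjusted p = 1.32e-06) and -1.27 ± 0.21 (adjusted p = 9.06e-06). Against libraries 1 and 4 these were -0.47 and -0.27 and stayed called. On Day10 the difference was -1.04 ± 0.21 (edgeR adjusted p = 1.84e-04) with all libraries and -0.11 (adjusted p = 0.29) against libraries 1 and 4. On Day5, Day7 and Day12 the sign turned with the pair, from 0.42, 0.63 and 0.57 against libraries 1 and 4 to -1.08, -0.85 and -0.94 against libraries 2 and 3. The call on Day5 with all libraries (-0.52 ± 0.21, edgeR adjusted p = 0.0342) was lost without Day0 library 2 (-0.27) or 3 (-0.30), and without Day5 library 2, 3 or 4. The differences on Day7 and Day12 were called lower without Day0 library 1 (-0.48 and -0.54) or 4 (-0.54 and -0.60). Between wound days Dpp4 rose from Day3 to Day5 by 0.93 ± 0.21 (edgeR adjusted p = 0.00199), fell on Day10 by 0.74, rose on Day12 by 0.66 and fell on Day14 by 0.90, all called.

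Cd34 (chr1:194938819-194961279, plus strand), a sialomucin of the cell surface, was 431, 779, 766 and 354 CPM in Day0 libraries 1 to 4. The wound days had ranges of 251 to 257 CPM on Day3, 408 to 425 on Day5, 443 to 472 on Day7, 368 to 395 on Day10, 397 to 456 on Day12 and 208 to 242 on Day14. It was below every Day0 library on Day3 (-1.19 ± 0.15, edgeR adjusted p = 4.73e-08) and Day14 (-1.39 ± 0.15, adjusted p = 4.24e-09), also against libraries 1 and 4 (-0.58 and -0.74). The calls on the other days depended on the libraries. With all 4 Day0 libraries the log2 fold changes were -0.48 on Day5, -0.35 on Day7, -0.63 on Day10 and -0.46 on Day12, each called lower (edgeR adjusted p = 0.00572, 0.0428, 6.37e-04 and 0.00965), whereas against libraries 1 and 4 they were 0.10, 0.21, -0.06 and 0.12, of which the one on Day7 was called higher. The call on Day7 was lost without Day0 library 2 (-0.18) or 3 (-0.19) and without any 1 of the Day7 libraries, that on Day12 without Day0 library 2 (-0.29) or 3 (-0.30), and that on Day5 without Day0 library 2 (-0.31, edgeR adjusted p = 0.0504). Between wound days Cd34 passed the test at 2 steps, a rise of 0.72 ± 0.15 from Day3 to Day5 (edgeR adjusted p = 5.00e-04) and a fall by 0.93 from Day12 to Day14 (adjusted p = 9.36e-06).

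Dpt (chr1:164796644-164824266, plus strand), the matrix protein dermatopontin that binds decorin and promotes collagen fibril assembly, was 543, 1266, 1261 and 412 CPM in Day0 libraries 1 to 4. Its libraries lay between 373 and 386 CPM on Day3, 632 and 666 on Day5, 853 and 943 on Day7, 760.1 and 811 on Day10, 788 and 894 on Day12 and 410.4 and 458 on Day14. The difference from Day0 was called on Day3 (-1.19 ± 0.20, edgeR adjusted p = 8.31e-06) and Day14 (-0.997 ± 0.20, adjusted p = 9.51e-05), and only the first held against libraries 1 and 4 (-0.28, adjusted p = 0.00150). On Day14 it was -0.05 against these libraries. On the 4 days between, Dpt was called higher against libraries 1 and 4, by 0.47 to 0.90, and lower against libraries 2 and 3, with log2 fold changes of -0.94 to -0.50. With all 4 libraries none of these days was called, and leaving out 1 library made a call of lower on Day5 without library 1 (-0.56) or 4 (-0.63) and on Day10 without library 4 (-0.40). Within the wound Dpt rose by 0.79 ± 0.20 from Day3 to Day5 (edgeR adjusted p = 0.00429) and fell by 0.92 from Day12 to Day14 (adjusted p = 4.55e-04). Of 10 matrix genes related to dermatopontin 4 were higher and 4 lower than Day0 on Day3, 7 higher and 3 lower on Day10 and 2 higher and 6 lower on Day14, and against Day0 libraries 1 and 4 they were 7 and 2, 7 and 2 and 4 and 4. Col12a1 had the largest rise of these on both Day3 (2.63 ± 0.19) and Day14 (1.95 ± 0.18), and Fmod the largest fall on Day3 (-3.06 ± 0.12).

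Ly6a (chr15:74994877-74998031, minus strand), the GPI-anchored antigen Sca-1, varied little on Day0, with 542, 491, 469.5 and 437 CPM in libraries 1 to 4, and its calls did not depend on the pair. It was 576 to 606 CPM on Day3 and 551 to 632 on Day5, above every Day0 library, then 379 to 399 on Day7, 275 to 281 on Day10, 416 to 455 on Day12 and 249 to 268 on Day14. It shares 21.9% of its 1259 annotated stretches of 31 bases with Ly6c1, so reads of the 2 genes may be shared. The log2 fold changes against Day0 were 0.28 ± 0.06 on Day3 (edgeR adjusted p = 7.44e-05), 0.24 ± 0.06 on Day5 (5.05e-04), -0.32 ± 0.06 on Day7 (2.89e-05), -0.79 ± 0.06 on Day10 (3.87e-12), -0.18 ± 0.06 on Day12 (0.0105) and -0.91 ± 0.06 on Day14 (1.18e-13). On Day7, Day10 and Day14 all 4 libraries lay below every Day0 library. The small difference on Day12 was lost without Day0 library 1 (-0.10, edgeR adjusted p = 0.13), and without composition normalization it was -0.03. Between wound days the gene fell by 0.56 on Day7 and by 0.48 on Day10, rose by 0.62 on Day12 and fell by 0.73 on Day14, each with an SE of 0.06.

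Ly6c1 (chr15:75044018-75048830, minus strand), another GPI-anchored Ly6 antigen, was 277, 307, 312 and 234 CPM in Day0 libraries 1 to 4. It lay between 205 and 211 CPM on Day3, 243 and 292 on Day5, 188 and 197 on Day7, 148 and 163 on Day10, 183 and 197 on Day12 and 107 and 130 on Day14. All days except Day5 were below every Day0 library, with log2 fold changes of -0.45 ± 0.07 on Day3 (edgeR adjusted p = 4.95e-06), -0.56 ± 0.07 on Day7, -0.89 ± 0.07 on Day10, -0.59 ± 0.07 on Day12 and -1.25 ± 0.07 on Day14 (adjusted p = 5.10e-14), and these 5 calls held against either pair. On Day5 the difference was -0.12 ± 0.07 (edgeR adjusted p = 0.14), and it was called without Day0 library 4 (-0.19) or Day5 library 4 (-0.19) and against libraries 2 and 3 (-0.25). Reads of this gene may be shared with its neighbours on chromosome 15. Of 1758 stretches of 31 bases in its annotated transcripts, 33.0% also occur in Ly6c2 and 15.7% in Ly6a, and how such reads were counted is not given in the sources used here. Ly6c2, a monocyte antigen, had 31.7, 3.08, 4.49 and 24.2 CPM in the Day0 libraries, with the highest values in libraries 1 and 4, and rose to 57.2 ± 2.99 CPM on Day3 (log2 fold change 1.85 ± 0.38, edgeR adjusted p = 1.03e-04), which was 1.08 against libraries 1 and 4 and 3.92 against libraries 2 and 3. On that day Ly6c1 was lower. Of 12 tested genes of the Ly6 family other than Ly6a and Ly6c1, 6 were higher and 4 lower on Day3 and 2 higher and 4 lower on Day14.

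Counted over the 8 genes, 2 were higher and 6 lower than Day0 on Day3, where 31.8% of all genes tested were higher and 34.8% lower. On Day5 3 were higher and 2 lower (29% and 30.6% of all genes), on Day7 2 and 3 (25.6% and 24.8%), on Day10 2 and 5 (23.5% and 26.9%), on Day12 1 and 4 (21.7% and 25.6%) and on Day14 1 and 7 (28.2% and 34.5%). Read against these shares, higher calls were as frequent or less frequent among the 8 genes than among all genes except for an excess of under 1 gene on Day5 and Day10, and lower calls were more frequent on every day except Day5. Against Day0 libraries 1 and 4 alone 2 members were higher and 5 lower on Day3 (32.1% and 29.5% of all genes in that fit), 5 and 0 on Day5 (28.7% and 28.1%), 6 and 2 on Day7 (25% and 24.6%), 3 and 3 on Day10 (20.9% and 24.9%), 4 and 3 on Day12 (21.5% and 22%) and 1 and 6 on Day14 (29.2% and 26.9%). Against libraries 2 and 3 the counts were 2 and 5 on Day3 (31.5% and 32.6%), 3 and 5 on Day5 (29% and 28.5%), 2 and 6 on Day7 (25.6% and 22.3%), 2 and 6 on Day10 (24.6% and 24.8%), 1 and 6 on Day12 (22.8% and 24.3%) and 1 and 7 on Day14 (28.9% and 32.7%). The lower calls were well above the background against both pairs on Day3 and Day14, whereas against libraries 1 and 4 those on Day7 were close to it and those on Day10 and Day12 exceeded it by about 1 member. Higher calls against libraries 1 and 4 were above the background on Day5, Day7, Day10 and Day12, and 0 members were lower on Day5. The 8 genes were chosen with earlier results of these data known and some vary together, so these counts are no test of an excess. With the criteria of the study's methods, an absolute log2 fold change over 1.5 and an unadjusted P under 0.05, no member passed on Day3 (6.5% of all genes higher, 12.4% lower) or Day5 (5.61% and 8.31%). Dlk1 and Crabp1 passed on Day7 (4.66% of all genes higher) and Day10 (4.33%), Dlk1 alone on Day12 (3.89%, with 3.51% lower and no member among them) and Day14 (5.15%), and Pi16 passed as lower on Day10 (5.14%) and Day14 (8.83%).

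Comparisons between wound days do not use the Day0 libraries as a reference. All 8 genes differed over the 6 wound days in edgeR's joint test, as did 85.1% of all genes. From Day3 to Day5, 5 members rose (Dpp4, Cd34, Dlk1, Dpt and Ly6c1) and 0 fell, with 12.9% and 11.4% of all genes tested. From Day5 to Day7, 2 rose (Dlk1 and Crabp1) and 2 fell (Ly6a and Ly6c1), with 13.9% and 14.6%. From Day7 to Day10 only Dlk1 rose and 4 fell (14.3% and 18%), and from Day10 to Day12 4 rose and 2 fell (18.7% and 20.7%). From Day12 to Day14 all 8 fell and 0 rose, with 25.3% and 19.9% of all genes, and the 4 libraries of Day14 lay below the 4 of Day12 for each of the 8 genes (26% of all genes). Pi16, Dpp4, Ly6a and Ly6c1 each fell on Day10, rose on Day12 and fell on Day14, a sequence found in 4.49% of all genes. In the exact permutation test of log2 CPM, 4 libraries against 4 and two-sided, the fall from Day12 to Day14 gave p = 0.0286 for each gene, the smallest p this design allows, over 40 tests of successive days.

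**Figure D4:**
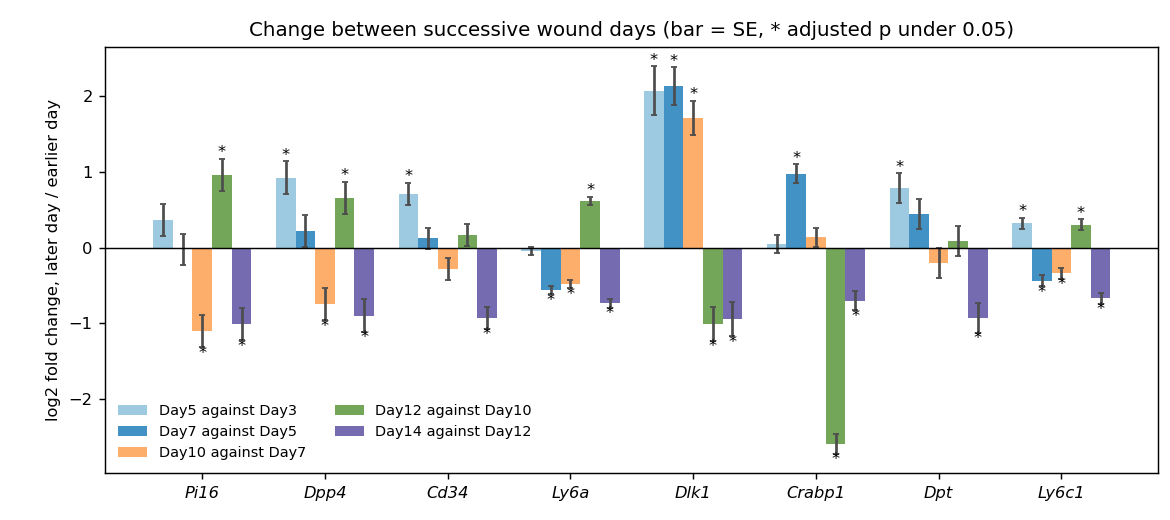
Log2 fold change of each gene between successive wound days, drawn as bars with their SE, where a star marks an adjusted p under 0.05 in edgeR. All 8 bars of Day14 against Day12 are negative and starred, and the bar of Crabp1 for Day12 against Day10 reaches -2.59.

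The fibroblast reference genes were also lower on Day14. Their mean log2 CPM was 9.11 ± 0.61 on Day0 (SD, n = 4), 9.02 ± 0.07 on Day3, 9.62 ± 0.03 on Day5, 10.07 ± 0.01 on Day7, 9.94 ± 0.06 on Day10, 9.64 ± 0.06 on Day12 and 8.60 ± 0.07 on Day14. Each member was therefore also expressed as the log2 ratio of its CPM to the mean of the reference genes in the same library. On this scale 6 members lay below all Day0 libraries on Day7, Day10 and Day12, with 64.7%, 57.8% and 34.4% of all genes tested, 3 on Day3 (16.8%), 4 on Day5 (31.9%) and 4 on Day14 (8.56%). On Day3 and Day5 no member lay above all Day0 libraries (12.8% and 5.32% of all genes). The mean ratio of all 8 genes was higher on Day14 than on Day12. It went from -0.89 to -0.59 for Ly6a, from -2.08 to -1.72 for Ly6c1 and from -0.92 to -0.81 for Cd34. The reference mean itself went from 9.64 to 8.60 between these days, so any gene that fell by less than the reference rose in ratio. A higher ratio on Day14 thus does not mean a higher level. The share of all genes with a higher ratio was not counted, and the difference in ratio was not tested. Against Day0 the exact permutation test gave p = 0.0286, the smallest possible, for each difference without overlap, over 48 tests.

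Among the Day0 libraries the SD of the log2 ratio was smaller than that of log2 CPM for Pi16 (0.44 against 0.87), Dpp4 (0.31 against 0.88), Cd34 (0.10 against 0.58) and Dpt (0.26 against 0.83) and larger for Ly6a (0.58 against 0.13), Crabp1 (0.90 against 0.30), Ly6c1 (0.42 against 0.19) and Dlk1 (1.21 against 1.01). Cd34 had a log2 ratio of -0.01 ± 0.10 on Day0 (SD, n = 4), against -1.03 ± 0.05 on Day3, -1.39 ± 0.02 on Day10 and -0.81 ± 0.04 on Day14, and it lay below all Day0 libraries on 6 of 6 days. Dpp4 also did so on 6 of 6 days, with a difference in log2 ratio of -1.68 on Day10 and -0.58 on Day14. Pi16 was lower by -2.25 on Day10 and overlapped Day0 on Day3 and Day5, and Dpt was lower by -0.93 on Day3 and overlapped Day0 on Day14 only. Dlk1 lay above all Day0 libraries on Day7, Day10, Day12 and Day14 and Crabp1 on Day7 and Day10, where 2.1%, 2.23%, 2.39% and 18.9% of all genes did so on Day7, Day10, Day12 and Day14. On Day14 the ratio of Dlk1 exceeded Day0 by 3.56 and that of Crabp1 overlapped Day0 (-0.41). The ratio sets a gene against reference genes that rose themselves, so a lower ratio on Day7 does not mean a lower level.

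**Figure D5:**
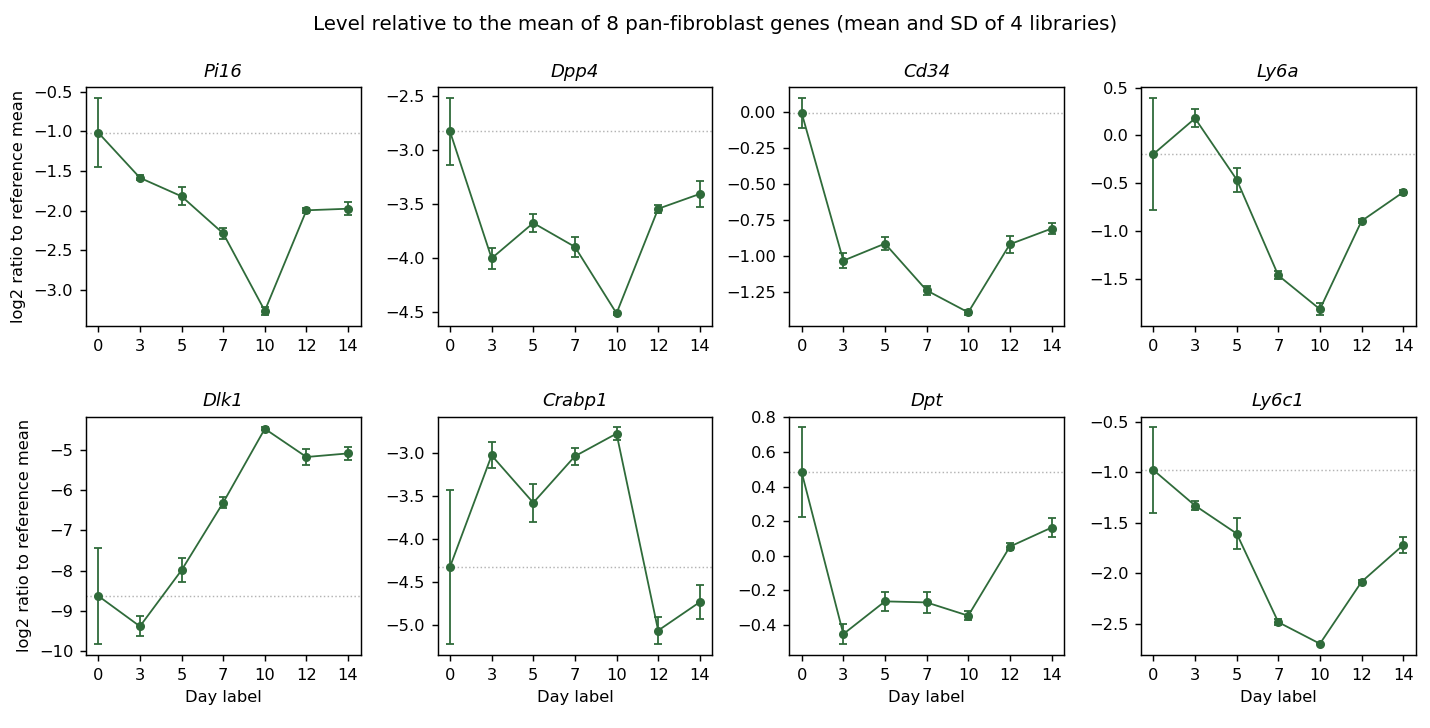
Log2 ratio of each gene to the mean of 8 pan-fibroblast genes in the same library against the day label, as mean and SD of 4 libraries, with the Day0 mean as a dotted line. Pi16, Dpp4, Cd34, Ly6a and Ly6c1 reach their lowest ratio on Day10, the day on which Dlk1 and Crabp1 reach their highest.

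Other fibroblast genes give the setting of these changes. Of the 8 reference genes 2 were higher and 5 lower than Day0 on Day3, 7 higher and 0 lower on Day7 and 1 higher and 5 lower on Day14. Against Day0 libraries 1 and 4 these counts were 4 and 0, 8 and 0 and 3 and 3, and against libraries 2 and 3 they were 2 and 6, 5 and 1 and 1 and 6. Of 20 genes of the progenitor or universal fibroblast type, such as Cd55, Sema3c, Scara5 and Col15a1, 1 was higher and 15 lower on Day3, 4 and 12 on Day10 and 3 and 12 on Day14, with median log2 fold changes of -0.94, -0.49 and -0.77 against -0.03, -0.02 and -0.06 over all genes tested. Against Day0 libraries 1 and 4 alone the counts were 7 higher and 12 lower on Day3, 6 and 9 on Day10 and 7 and 12 on Day14, and on Day12 they turned from 3 higher and 9 lower to 11 higher and 4 lower. Scara5, a ferritin receptor, fell by 2.49 on the log2 scale on Day14 (SE 0.24, edgeR adjusted p = 7.54e-10), or by 1.43 against Day0 libraries 1 and 4 and 3.07 against libraries 2 and 3, and Procr rose by 1.38 ± 0.13. Of 10 genes of activated fibroblasts and myofibroblasts, 8 were higher and 0 lower on both Day7 and Day10 (8 and 1 and 8 and 2 against Day0 libraries 1 and 4), with a median of 1.00 on Day10, and Lrrc15 was still 3.24 ± 0.27 higher on Day14. Of 9 measured genes of reticular and hypodermal fibroblasts, the compartment to which Dlk1 belongs, 4 were higher and 3 lower on Day3 (5 and 2 against Day0 libraries 1 and 4, 4 and 5 against libraries 2 and 3), 3 higher and 4 lower on Day10 and 3 higher and 5 lower on Day14.

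Markers of other cell types changed over the same days. All 10 genes of macrophages and neutrophils were higher on Day3, Day5 and Day7, and 9 were lower on Day14, and their summed CPM was 1492 to 2187 on Day0, 8632 to 9951 on Day3, 2258 to 2502 on Day10 and 806 to 861 on Day14. For endothelial genes 8 of 10 were higher and 1 lower on Day3, and 0 were higher and 5 lower on Day14 (2 and 4 against Day0 libraries 1 and 4), with summed CPM of 639.9 to 835 on Day0, 1156 to 1256 on Day3 and 593 to 671 on Day14. No gene of these lists was at or under 3 counts. Of 9 interferon-stimulated genes, listed because interferon also induces Ly6a in many cells, 8 were higher on Day3 and Day5, 0 were higher and 4 lower on Day10 and 6 were higher on Day12. On Day7 and Day12, when Ly6a was lower than Day0, 5 and 6 of these genes were higher and 0 lower, but this depended on the Day0 pair. Against Day0 libraries 1 and 4 the counts were 2 higher and 2 lower on Day7, 0 and 9 on Day10 and 4 and 2 on Day12. With libraries 2 and 3 they were 8 and 1, 3 and 3 and 8 and 0. The summed CPM of the list was 497.5, 262, 271.5 and 462 in Day0 libraries 1 to 4. In the wound it was 764 to 857 on Day3, 662 to 737 on Day5, 467 to 476 on Day7 and 267 to 285 on Day10. It was 491 to 569 on Day12 and 437 to 482 on Day14. The mean of Ly6a on the same 6 days was 589, 573, 390, 280, 429 and 258 CPM. Whether the list and Ly6a are linked was not tested. On Day3 2 of 9 lymphocyte genes were higher and 5 lower, 0 of 10 follicle stem cell genes higher and 8 lower, 5 of 10 adipocyte genes higher and 3 lower and 2 of 9 mast cell genes higher and 6 lower. On Day14 the counts were 0 and 7, 4 and 5, 7 and 1 and 1 and 7 in the same order. Basal keratinocyte genes were lower for 8 of 10 on Day3 and 6 of 10 on Day14, and skeletal muscle genes for 10 of 10 on both days. Against Day0 libraries 2 and 3 the muscle counts were 1 higher and 8 lower on Day3 and 2 higher and 8 lower on Day14. Of all genes tested, 31.8% were higher and 34.8% lower on Day3, and 28.2% and 34.5% on Day14. The part of these cell types in the levels of Cd34, Ly6a and Ly6c1 was not tested.

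On the length-corrected scale of FPKM the order of the members on Day10 was Dpt (459 ± 6.47, SD, n = 4), Ly6a (283 ± 4.70), Crabp1 (183 ± 7.37), Cd34 (146 ± 2.70), Ly6c1 (87.9 ± 2.64), Pi16 (44.7 ± 2.09), Dlk1 (9.23 ± 0.38) and Dpp4 (5.99 ± 0.14), with no overlap between neighbours. On Day14 Ly6a (275 ± 6.56) and Dpt (272 ± 14.1) did not differ beyond their spread, and Crabp1 stood at 19.6 ± 2.87 FPKM, below Pi16 at 45.4 ± 3.54. On Day0 Dpt (497 ± 262) and Ly6a (473 ± 40.8) overlapped, as did Cd34 (217 ± 83.2), Ly6c1 (157 ± 20.1) and Pi16 (131 ± 72.0), followed by Crabp1 (34.2 ± 7.41), Dpp4 (11.9 ± 6.56) and Dlk1 (0.331 ± 0.285).

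Over the 28 libraries the log2 CPM of Dpp4 and Cd34 correlated with r = 0.92, Cd34 and Dpt with r = 0.90, Dpp4 and Dpt with r = 0.89, Ly6a and Ly6c1 with r = 0.85 and Pi16 and Ly6c1 with r = 0.85. Dlk1 ran against Ly6a (r = -0.73), and Crabp1 correlated with no other member beyond r = 0.24. These values describe libraries that share days and the Day0 pairs, and Ly6a and Ly6c1 share sequence. Among 12310 other genes with a mean of at least 5 CPM, those most like Dpt were Col1a2 (r = 0.97), Sparc (0.97) and Ogn (0.96), those most like Cd34 were Timp2, Cgref1 and Scara3 (0.97 each) and those most like Dpp4 were Scara5 (0.95), Septin5 (0.94) and Abca6 (0.93). Pi16 was nearest to C7 (0.95), Serping1 (0.95) and Dgat2l6 (0.94), Ly6a to Errfi1 (0.97), Rab11fip1 (0.96) and Elovl1 (0.96) and Ly6c1 to Itm2b (0.96), Fcna (0.94) and Sgms1 (0.94). Dlk1 was nearest to Nlgn2 (0.96), Adamts17 (0.95) and Gpnmb (0.95), and Crabp1 to Qsox1 (0.95), Slc39a13 (0.94) and Lgals1 (0.94), all over the same 28 libraries.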

How the data were processed

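RNA was sequenced from 28 samples of mouse dorsal skin wounds, 4 for each of 7 days, and the groups were taken from the labels. The authors deposited raw read counts per gene symbol, and they also deposited FPKM values, which they had scaled by gene length and library size. The submitters' processing notes name mm10, fastp and R 3.2.0, and the aligner, counting tool, annotation and use of strand are not given in the sources used here. How reads shared between similar genes were assigned, which could affect Ly6a and Ly6c1, is therefore unknown.

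Counts were tested with edgeR 4.0.16 (quasi-likelihood, TMM, filterByExpr) in R 4.3.3 with limma 3.58.1, in 1 fit of 28 libraries with 21 residual degrees of freedom, and p-values were adjusted by Benjamini-Hochberg over 18107 of 29068 genes in each comparison, or over 18807 and 18861 genes in the fits without Day0 libraries 2 and 3 and without 1 and 4. Log2 CPM used a prior count of 2. Levels against Day0, ratios and successive days were also compared by two-sided exact permutation tests, 4 against 4, whose smallest p is 0.0286. FPKM was used for levels between genes only. Depth was 36706513 to 40655764 counts (median 39499595).

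The 8 members and 19 gene lists were chosen with earlier results of these data known. Of 201 listed symbols, 5 were absent from the table, and some genes stand in more than 1 list (Dcn, Mest, Tnxb, Axin2, Col1a1, Postn, Plagl1). The text names all members. Other named genes come from the 2 largest and 2 smallest called changes of a list on Day3 and Day14, of which a part is given, selected single genes (Pdgfra, Ly6c2, Crabp2, Meg3, Mest and others) and, for each member the 3 genes with the highest correlation at a mean of at least 5 CPM. Scripts used python 3.11.15, numpy 2.4.6 and pandas 2.3.3. Alternatives were DESeq2 1.42.0, its size factors, no composition normalization, no count filter, the 8 libraries compared, a replicate block, Xist as a covariate, each library left out and, chosen after seeing the data, each Day0 pair left out. Gene coordinates are those of GRCm38 in GENCODE vM21 as matched by symbol. Promoter windows are RefSeq, and no window was matched to Ly6a in the set used here.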

Additional observations from a re-analysis of the deposited data

Results flagged for a closer look

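In 6 of 56 groups of 4 libraries, 8 genes on 7 days, 1 library stood apart from the other 3 by more than Dixon's 95% criterion, which chance meets in about 1 of 20 groups. Dpp4 was at 6.03 log2 CPM in Day7 library 4, against 6.22 in each of the others, and at 5.10 in Day14 library 3, against 5.22 to 5.24. Day5 library 4 was high for Ly6a, at 9.30 against 9.11 to 9.12, and for Crabp1, at 6.33 against 5.92 to 5.99. Ly6a was at 8.11 in Day10 library 2, against 8.13 to 8.14, and Dpt was at 9.30 in Day5 library 3, against 9.37 to 9.38. Day5 library 4, Day7 library 4 and Day14 library 3 also stood apart over the 17905 genes outside the lists. Their median differences in log2 CPM from the other libraries of the day were 0.22 to 0.23, 0.16 to 0.18 and 0.17 to 0.18. Among those others they were 0.10 to 0.11, 0.11 to 0.12 and 0.11 to 0.13. Flags in these 3 libraries are thus not particular to the flagged genes. No call between successive days changed when any 1 library was left out. The Day0 pairs were not marked by this criterion, since 2 libraries stood on either side.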

How the results depend on the processing

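The levels against Day0 depended on the choice of Day0 libraries more than on any other setting tried. Without Day0 libraries 2 and 3, 14 of 48 log2 fold changes changed sign: Pi16 to 0.13, 0.46, 0.43 and 0.30 on Day3, Day5, Day7 and Day12, Dpp4 to 0.42, 0.63 and 0.57 and Cd34 to 0.10, 0.21 and 0.12 on Day5, Day7 and Day12, Dpt to 0.47, 0.70 and 0.81 on Day5, Day10 and Day12 and Ly6c1 to 0.033 on Day5. Without libraries 1 and 4, 2 did, Dpt to -0.50 on Day7 and Crabp1 to 0.012 on Day12. Genes called of 8 on Day5 (5 with all libraries) were 1 with only the 8 libraries compared and 8 without Day0 libraries 1 and 4, those on Day7 (5) were 8 without either pair, those on Day12 (5) were 2 without composition normalization and 2 with the 8 libraries, and those on Day10 against Day7 (5) were 8 with the 8 libraries. Leaving out 1 library gave 3 (without Day0 library 2) to 8 (without Day0 library 4) on Day5 and 3 to 6 on Day12.

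Small differences changed sign without 1 library, Dpt against Day0 with ranges of -0.20 to 0.27 on Day7, -0.40 to 0.071 on Day10 and -0.29 to 0.17 on Day12, Crabp1 from Day3 to Day5 with -0.063 to 0.093 and Pi16 from Day5 to Day7 with -0.051 to 0.023. Dpt on Day7 was -0.0070 with the 8 libraries, and without composition normalization Dpt on Day12 was 0.070 and Pi16 from Day5 to Day7 0.023. The cause was not tested. DESeq2, its size factors, the Xist covariate and no filter kept 86 or more of 88 calls and turned no sign. Replicate numbers did not pair the samples (correlations of -0.076 to 0.18 over 84 same-numbered pairs), and with the replicate block Dpp4 on Day5 (-0.48, edgeR adjusted p = 0.0515) and Cd34 on Day7 (-0.33, adjusted p = 0.0579) lost their calls, leaving 4 called on each day, with no other call changed. Depth limits Dlk1 most, with 22 counts in its lowest library.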
